A study of Homo sapiens with 6 samples.

Results

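The BCL2 family genes are 10 of the 26364 genes in the deposited RNA-seq table. They were taken as the rows whose gene symbol was BCL2, BCL2L1, MCL1, BAX, BAK1, BCL2L11, BBC3, BIK, BMF or BID. All 10 were in the table, and all 10 passed the filter on low values, a mean of at least 10 normalised reads over the 6 libraries. RNA came from T47D, an established human breast cancer line that the labels class as luminal A, taken 48 h after transfection with siELF5, an siRNA against the ETS-type transcription factor ELF5 (3 libraries), or with siNC, a control siRNA (3 libraries). Each group received 1 siRNA product, and the products differ in catalogue number, so each difference below sets those products against each other. Both groups were transfected, and no untransfected cells were analysed here. Separate cultures are not stated in the labels, so the p-values cover only library-to-library spread, and that spread may be technical.

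As background, the BCL2 family decides whether the outer membrane of the mitochondrion is opened during apoptosis. Survival proteins (BCL2, BCL-XL from BCL2L1, and MCL1) bind and hold back the pore-forming effectors BAX and BAK (from BAK1). BH3-only proteins (BIM from BCL2L11, PUMA from BBC3, BIK, BMF and BID) answer stress, loss of attachment or death receptor signals by occupying the survival proteins or by activating the effectors. In mammary epithelium, BIM and BMF are known for their part in the death of cells that have lost contact with the matrix, and in mice MCL1 keeps the milk-producing cells alive at lactation.

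The main change among the 10 was in BMF, whose RNA fell to 45.9% of the siNC mean in siELF5 libraries. BCL2L11 fell to 77.0% of the siNC mean, and BID rose to 119%. The most abundant survival genes, MCL1 and BCL2L1, fell by small amounts, to 90.8% and 90.5% of their siNC means. The scarce transcripts of BCL2 and BBC3 were called higher, but on few reads and not in every way of treating the libraries. BAX, BAK1 and BIK did not pass the test, though BAX and BAK1 were called lower after a correction for GC content. With a GC score of each library, described below, as a covariate, BMF alone among the 10 was called. That fit called 7.15% of all tested genes, and the log2 fold change of BID in it was -0.00193. Of the 10 genes, 3 were called higher and 4 lower, with an adjusted p under 0.05 in limma (two-sided, Benjamini-Hochberg over all genes tested). These counts stand beside a very wide response: 47.1% of the 16032 tested genes were called, 23.8% higher and 23.3% lower. The members' median log2 fold change was -0.11, against 0.00 over all genes tested. In 7 of the 10 the values of the siELF5 libraries did not overlap those of the siNC libraries, as in 55.9% of all tested genes. Of the 7 called members, 4 differed by less than 1.5-fold.

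The libraries held 66.8 M to 83.7 M reads. ELF5 itself fell to 3678, 3725 and 3638 normalised reads in siELF5 libraries, against 13225, 13148 and 12910 in siNC libraries, and the log2 fold change was -1.83 (SE 0.033; limma, adjusted p = 3.26e-12). The 10 luminal epithelial markers had summed values of 710782 to 741044 in siELF5 and 755176 to 804255 in siNC libraries, and each had a mean of at least 10. The sum covers opposite directions. ESR1, PGR, GATA3, FOXA1 and MUC1 were called higher, and KRT8 and KRT18 lower (log2 fold changes -0.41 and -0.45). That is 5 higher and 2 lower, against 23.8% higher and 23.3% lower of all tested genes. MUC1 was at 0.62 as deposited and at -0.72 after a correction for GC content. After that correction 4 of the 10 were called higher and 4 lower, among them KRT19 at -0.31, where 50.1% of all genes in that fit were called. With the library GC score, described below, as a covariate, only ESR1 was called higher and only KRT8 and KRT18 lower. That fit called 7.15% of all tested genes. Markers of fibroblasts, leukocytes, endothelium and basal cells summed to 3678 to 4260 in siELF5 and 4445 to 5629 in siNC libraries. COL1A1 made up most of that sum, with 3473 ± 274 normalised reads in siELF5 and 4649 ± 582 in siNC libraries (SD, n = 3 each), and was called lower (log2 fold change -0.42, limma adjusted p = 0.00088). VWF was also called lower and TP63 higher (log2 fold changes -1.14 and 0.32, limma adjusted p = 0.0129 and 0.0483). VWF had only 12 to 37 reads per library, and TP63 was not called by DESeq2 (adjusted p = 0.0955). With the GC score as a covariate the VWF and TP63 calls were lost (limma adjusted p = 0.518 and 0.549), while that of COL1A1 was kept. The part of such cells in the members' results was not tested. Of those 12 markers, 7 had a mean under 10 (COL1A2, PDGFRB, PTPRC, CD3E, PECAM1, KRT5 and KRT14), and none was at 0 in every library. In such bulk RNA, fewer cells with a transcript and less of it per cell cannot be told apart. The groups also stood apart in how strongly GC-rich genes were read. A library GC score, which is the median log2 deviation of the tenth of genes with the highest GC content minus that of the fifth of 10 GC classes, was 0.22, 0.28 and 0.22 in siELF5 libraries and -0.39, -0.22 and -0.07 in siNC libraries. The groups do not overlap in this score. The members' transcripts ranged from 45.1% to 69.7% GC, against a median of 48.6% over tested genes, so the members' results are given below also after a correction for GC content and, for each called member, with the score as a covariate. Since the groups differ in the score, that covariate absorbs some of their difference, and the median standard error was 0.151 with it, against 0.063 without it.

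**Figure D1:**
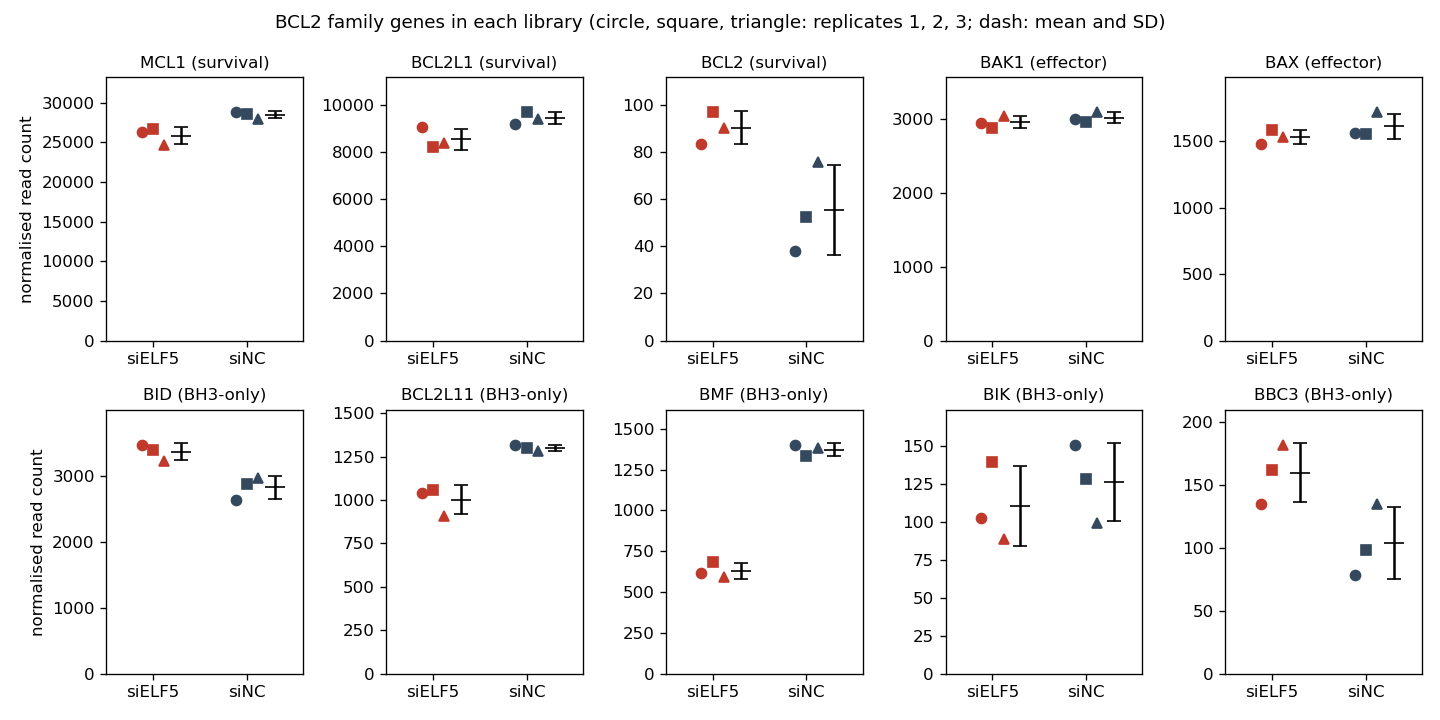
Normalised read count (vertical axis, from 0) of each of the 10 BCL2 family genes in the 3 siELF5 and the 3 siNC libraries, with circles, squares and triangles for replicates 1, 2 and 3 and bars for the mean and SD. BMF and BCL2L11 lie lower in all 3 siELF5 libraries, while BIK, BAX and BAK1 overlap between the groups.

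BMF, a BH3-only protein held at the cytoskeleton until attachment is lost, had 615, 683 and 591 normalised reads in siELF5 libraries, against 1404, 1331 and 1384 in siNC libraries. The means were 629 ± 47.9 in siELF5 and 1373 ± 37.8 in siNC libraries (SD, n = 3 each). Every siELF5 library lay between 43.0% and 49.8% of the siNC mean, and the groups were far apart relative to the spread within each. The log2 fold change was -1.13 (SE 0.071, 95% confidence interval -1.28 to -0.97, limma adjusted p = 8.89e-08). It was -1.17 after the GC correction (limma adjusted p = 1.83e-09) and -1.15 with the GC score as a covariate (limma adjusted p = 0.000602). BMF alone among the 10 was called with that covariate, in a fit that called 7.15% of all tested genes. An antisense gene, BMF-AS1, covers 9.38% of the BMF exon length in the GENCODE 29 annotation, and the library kit does not mark strand.

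The BMF promoter is shown because BMF carries the largest change of the family, and those of BCL2L11 and BCL2L1 because they are the only members' promoters that held 1 of the 2 motifs searched. The sequences are from RefSeq (GRCh38.p14), each 250 bases before to 50 bases after a start of transcription, 5′ to 3′ on the gene's strand. Capitals mark CCGGAAG, an ETS-type motif, or GTAAACA, a forkhead-type motif, searched on both strands (CTTCCGG and TGTTTAC on the other). The motifs do not overlap each other.
BMF, upstream start, chr15:40108830-40109129, minus strand: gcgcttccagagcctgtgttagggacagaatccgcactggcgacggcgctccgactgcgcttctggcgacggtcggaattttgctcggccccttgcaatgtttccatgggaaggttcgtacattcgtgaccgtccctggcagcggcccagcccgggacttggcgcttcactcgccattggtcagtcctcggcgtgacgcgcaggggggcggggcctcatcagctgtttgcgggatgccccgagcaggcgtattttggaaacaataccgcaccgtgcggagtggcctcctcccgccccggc
BMF, downstream start, chr15:40106917-40107216, minus strand: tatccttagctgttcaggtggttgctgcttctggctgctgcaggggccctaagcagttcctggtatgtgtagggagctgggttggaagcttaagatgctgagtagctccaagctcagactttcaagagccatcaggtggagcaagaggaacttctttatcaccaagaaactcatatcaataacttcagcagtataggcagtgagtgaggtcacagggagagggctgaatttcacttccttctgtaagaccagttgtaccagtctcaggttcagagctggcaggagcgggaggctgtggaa
BCL2L11, chr2:111120664-111120963, plus strand: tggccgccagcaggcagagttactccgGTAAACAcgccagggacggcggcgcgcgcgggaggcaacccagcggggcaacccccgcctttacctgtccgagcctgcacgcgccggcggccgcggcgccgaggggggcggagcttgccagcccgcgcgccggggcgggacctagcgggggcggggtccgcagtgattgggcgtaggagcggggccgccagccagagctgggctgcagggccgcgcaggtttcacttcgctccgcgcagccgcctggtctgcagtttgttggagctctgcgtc
BCL2L1, chr20:31723914-31724213, minus strand: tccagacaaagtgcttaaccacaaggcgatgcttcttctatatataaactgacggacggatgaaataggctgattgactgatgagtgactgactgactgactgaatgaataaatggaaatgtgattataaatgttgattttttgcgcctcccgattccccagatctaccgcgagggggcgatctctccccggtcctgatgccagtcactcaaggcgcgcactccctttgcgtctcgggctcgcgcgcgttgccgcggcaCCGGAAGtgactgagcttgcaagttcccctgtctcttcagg

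Promoters of 8 of the 10 genes, 14 in all, were in the RefSeq table. MCL1 and BIK were not matched. The ETS-type motif was in 1 of the 14, at position 10 after the BCL2L1 start, against 10.3% of all 35116 promoters of the same length. The forkhead-type motif was also in 1 of the 14, at position -223 before the BCL2L11 start, against 3.42% of all promoters. The 14 are not separate units, since BID windows overlap each other. By gene, each motif was in 1 of the 8, against 12.2% (ETS-type) and 4.19% (forkhead-type) of 27305 genes. Neither BMF window held those exact letters. Other forms of either motif were not searched, so a lack of such sites cannot be read from this.

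BCL2L11, whose product BIM binds all of the survival proteins, had 1043, 1056 and 909 normalised reads in siELF5 libraries, against 1320, 1302 and 1285 in siNC libraries. All 3 siELF5 libraries lay below all 3 siNC libraries, and siELF5 replicate 3 was the lowest. The log2 fold change was -0.38 (SE 0.068, 95% confidence interval -0.53 to -0.23, limma adjusted p = 0.000543). It was -0.34 after the GC correction (limma adjusted p = 0.000352). With the GC score as a covariate the value was -0.37 but the interval, -0.73 to 0.00, was wider and the call was lost (limma adjusted p = 0.247). MIR4435-2HG, a long noncoding RNA gene on the opposite strand, covers 11.9% of the BCL2L11 exon length. It had 255 ± 24.4 normalised reads in siELF5 and 332 ± 39.2 in siNC libraries (SD, n = 3 each), a log2 fold change of -0.37 (limma adjusted p = 0.0225), and without strand the reads of the shared part cannot be told apart.

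BID, the BH3-only protein cut by caspase-8 to link death receptors to mitochondria, had 3475, 3396 and 3221 normalised reads in siELF5 libraries, against 2632, 2881 and 2969 in siNC libraries. The groups did not overlap, and siELF5 replicate 3 and siNC replicate 3 were the closest pair. The log2 fold change was 0.25 (SE 0.052, 95% confidence interval 0.14 to 0.36, limma adjusted p = 0.0016), and 0.26 after the GC correction (limma adjusted p = 0.00032). With the GC score as a covariate it was -0.00193 (SE 0.114, limma adjusted p = 0.996). In the siNC libraries BID was higher where the GC score was higher. The part of the score in the BID result was not tested.

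BBC3, whose product PUMA binds the survival proteins, had 134.9, 162 and 182 normalised reads in siELF5 libraries, against 78.2, 97.8 and 134.6 in siNC libraries. The lowest siELF5 value and the highest siNC value nearly met. The log2 fold change was 0.64 (SE 0.202, 95% confidence interval 0.21 to 1.08, limma adjusted p = 0.0194). BBC3 has the highest GC content of the 10, 69.7%, and its direction turned after the GC correction (log2 fold change -0.46, limma adjusted p = 0.0403). It was -0.44 with the GC score as a covariate (limma adjusted p = 0.632). The call was also lost without siNC replicate 1, siNC replicate 2, siELF5 replicate 2 or siELF5 replicate 3 (limma adjusted p = 0.0653, 0.0597, 0.0593 and 0.0773). The direction of BBC3 thus depended on the treatment of GC content.

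BIK, a BH3-only protein of the endoplasmic reticulum, had 102, 139 and 88.3 normalised reads in siELF5 libraries, against 151, 128 and 99.2 in siNC libraries. The groups overlapped, with a log2 fold change of -0.20 (95% confidence interval -0.65 to 0.25, limma adjusted p = 0.46). The interval leaves both a fall and a small rise possible.

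**Figure D2:**
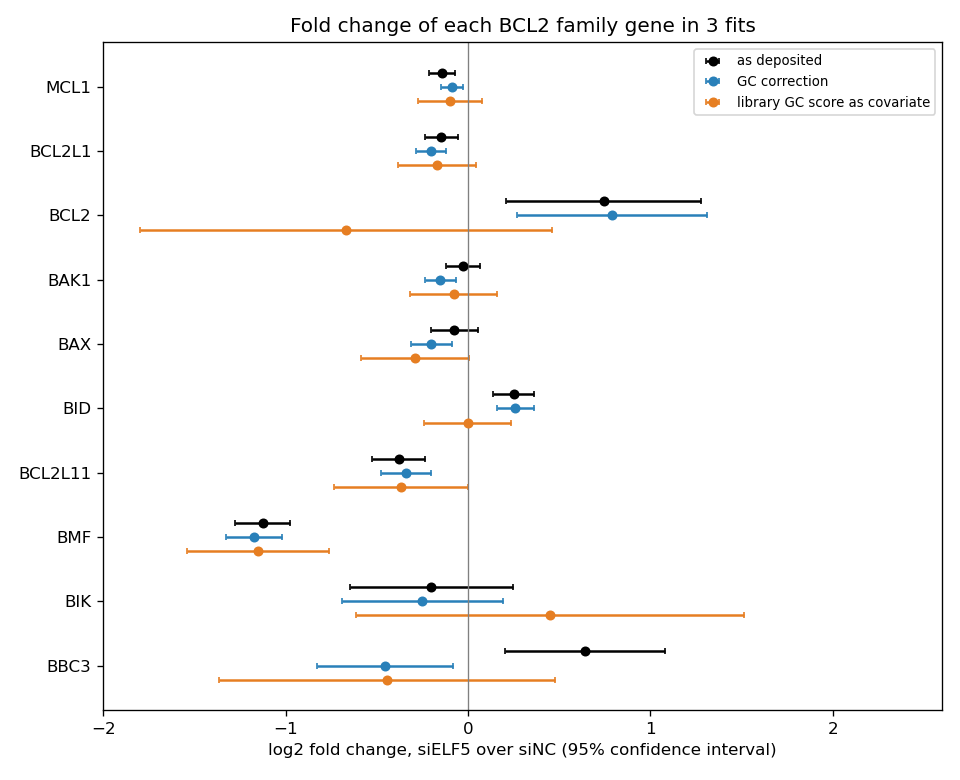
Log2 fold change of each gene, siELF5 over siNC (horizontal axis), with its 95% confidence interval, for the values as deposited, the GC correction, and a fit that takes the GC score as a covariate. BMF keeps its place in all 3 fits, from -1.17 to -1.13, whereas BBC3 lies at 0.64 as deposited and at -0.46 after the GC correction.

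Among the survival genes, MCL1, a short-lived protein, had 26260, 26638 and 24704 normalised reads in siELF5 libraries, against 28897, 28568 and 28000 in siNC libraries. All siELF5 libraries were lower than all siNC libraries. The log2 fold change was -0.14 (SE 0.033, 95% confidence interval -0.21 to -0.07, limma adjusted p = 0.00383), and -0.09 after the GC correction (limma adjusted p = 0.0174). The call was lost with the GC score as a covariate (log2 fold change -0.10, limma adjusted p = 0.568). BCL2L1 had 9046, 8200 and 8395 normalised reads in siELF5 libraries, against 9199, 9715 and 9414 in siNC libraries. The groups did not overlap, but siELF5 replicate 1 lay close to siNC replicate 1. Its log2 fold change was also -0.14 (SE 0.041, limma adjusted p = 0.0108), and -0.20 after the GC correction (limma adjusted p = 0.000352). Its call was lost with the GC score as a covariate (log2 fold change -0.17, limma adjusted p = 0.376), without siNC replicate 2 (limma adjusted p = 0.0662) and without siELF5 replicate 2 (limma adjusted p = 0.0555). ABALON, a noncoding gene on the opposite strand, covers 42.8% of the BCL2L1 exon length. ABALON had 192 ± 1.39 normalised reads in siELF5 and 248.5 ± 13.3 in siNC libraries (SD, n = 3 each), a log2 fold change of -0.37 (limma adjusted p = 0.0182).

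BCL2, which is known as an oestrogen-responsive gene in luminal breast cancer, was the scarcest member. It had 83.3, 97.1 and 90.4 normalised reads in siELF5 libraries, against 37.9, 52.6 and 75.9 in siNC libraries. These stood for 92, 99 and 88 reads in siELF5 and 33, 57 and 75 reads in siNC libraries. The siELF5 libraries were close to each other, and the siNC libraries were spread widely, in the order of their GC scores. The log2 fold change was 0.75 (SE 0.247, 95% confidence interval 0.21 to 1.28, limma adjusted p = 0.0247), and 0.79 after the GC correction (limma adjusted p = 0.0138). With the GC score as a covariate it was -0.67 (SE 0.538, limma adjusted p = 0.537). The call was lost without siNC replicate 1, siNC replicate 2, siELF5 replicate 2 or siELF5 replicate 3 (limma adjusted p = 0.0908, 0.0649, 0.0835 and 0.0591). BCL2 transcripts are 45.6% GC, near the low end of the family. The part of the score in the BCL2 result was not tested.

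**Figure D3:**
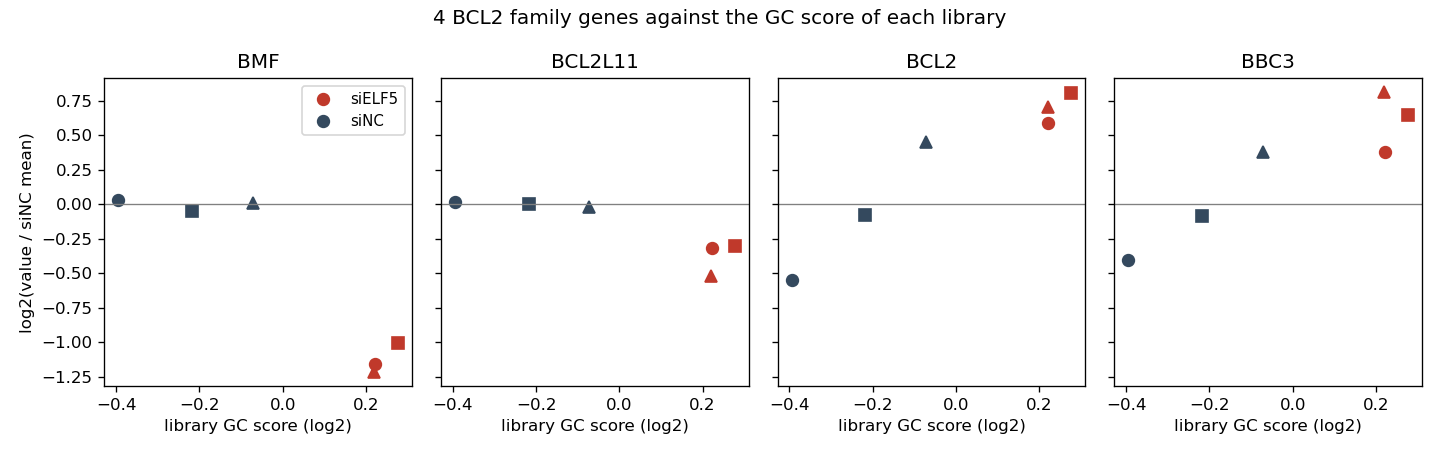
Log2 of each library's value over the siNC mean (vertical axis) against the library GC score (horizontal axis) for BMF, BCL2L11, BCL2 and BBC3, siELF5 in red and siNC in blue. Within siNC, BMF and BCL2L11 stay level across scores of -0.39 to -0.07, while BCL2 and BBC3 are higher in the libraries with higher scores.

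The effectors did not pass the test as deposited. BAX, which moves from the cytosol to mitochondria when activated, had 1479, 1581 and 1532 normalised reads in siELF5 libraries, against 1558, 1555 and 1723 in siNC libraries, a log2 fold change of -0.07 (95% confidence interval -0.20 to 0.05, limma adjusted p = 0.327). BAK1, whose product resides at mitochondria, had 2943, 2884 and 3047 in siELF5 libraries, against 2994, 2960 and 3101 in siNC libraries, a log2 fold change of -0.03 (95% confidence interval -0.12 to 0.06, limma adjusted p = 0.611). The groups overlapped for both genes, and both intervals lay within 1.5-fold in either direction. Both transcripts are near 59% GC (58.9% for BAX and 58.8% for BAK1), and after the GC correction both were called lower, at -0.20 for BAX and -0.15 for BAK1 (limma adjusted p = 0.00471 and 0.00494). After that correction 9 of the 10 genes were called, 2 higher and 7 lower, and 50.1% of the 14924 genes with a known GC content. BAK1 has 2 annotated pseudogenes, BAK1P1 and BAK1P2, that could share its reads, and the rule for shared reads is not given in the sources used.

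Other tests on the same libraries called the same number of members. On the recovered whole reads, edgeR's quasi-likelihood test called 7 of the 10 (47.3% of all tested genes) and DESeq2 7 of the 10 (45.5%). The authors' deposited table also had 7 of the 10 under an adjusted p of 0.05, where 41.1% of its 17294 genes with an adjusted p were under it. In the authors' deposited table the log2 fold change was -1.12 for BMF, -0.38 for BCL2L11, 0.25 for BID and 0.70 for BCL2.

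Levels can be set between genes only per length, and are given here as RPKM, the reads of a gene divided by its merged exon length in kb and by the reads of the library in M. MCL1 was the most abundant, at 84.4 ± 2.87 in siELF5 and 90.9 ± 1.23 in siNC libraries (SD, n = 3 each, as for the other levels). BCL2L1 followed at 39.8 ± 1.77 in siELF5 and 43.1 ± 1.17 in siNC libraries. ABALON covers 42.8% of the BCL2L1 exon length. How reads of the shared part were counted is not given in the sources used, so this level is uncertain. BAK1 stood at 17.8 ± 0.609 in siELF5 and 17.8 ± 0.481 in siNC libraries. BID and BAX came next and changed places: BID was at 16.0 ± 0.479 in siELF5 and 13.1 ± 0.836 in siNC libraries, and BAX at 14.4 ± 0.570 in siELF5 and 14.9 ± 0.927 in siNC libraries. A wide step separated these from the rest of the BH3-only members. BMF and BCL2L11 also changed places, with BMF at 1.71 ± 0.129 in siELF5 and 3.64 ± 0.103 in siNC libraries, and BCL2L11 at 2.19 ± 0.164 in siELF5 and 2.79 ± 0.031 in siNC libraries. BIK was at 1.54 ± 0.367 in siELF5 and 1.72 ± 0.349 in siNC libraries, and its values overlapped those of BMF in siELF5 libraries, so their order there is not settled. BBC3 was at 1.02 ± 0.159 in siELF5 and 0.645 ± 0.180 in siNC libraries. BCL2 came last, at 0.102 ± 0.008 in siELF5 and 0.062 ± 0.021 in siNC libraries. With the longest transcript as the length, BID averaged 18.0 ± 0.539 and BAK1 17.8 ± 0.609 in siELF5 libraries, with overlapping values, so their order there is not settled.

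**Figure D4:**
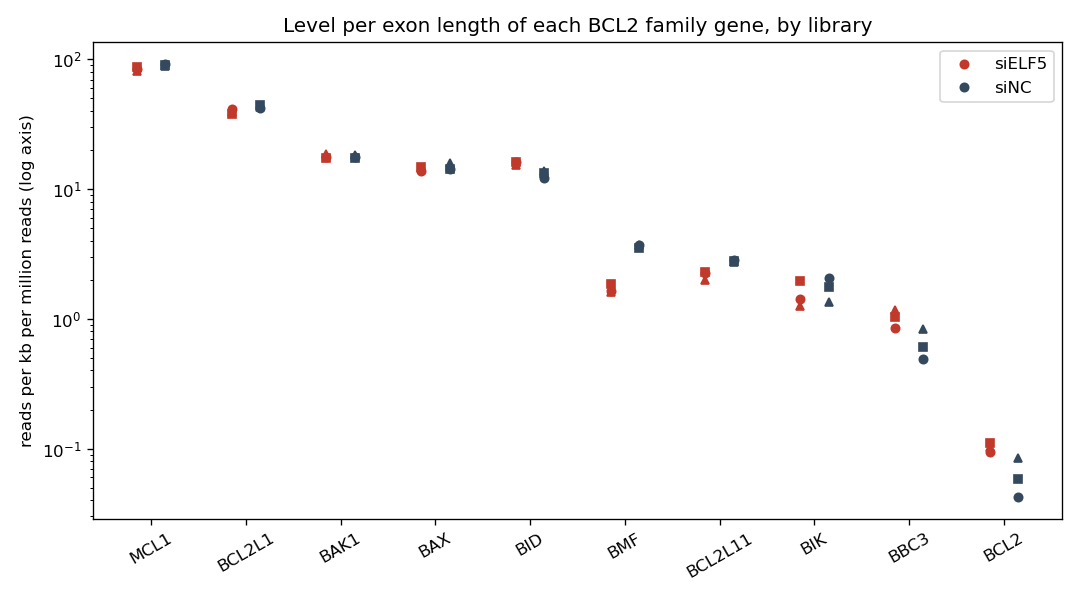
RPKM (reads per kb of merged exon per M reads, log axis) of the 10 genes in each library, siELF5 in red to the left of siNC in blue. MCL1 and BCL2L1 stand at the top with 84.4 and 39.8 in siELF5 libraries, and BCL2 at the bottom with 0.102.

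By class, the 3 survival genes held 68.9% to 70.2% of the members' summed reads per kb in siELF5 libraries and 70.1% to 71.6% in siNC libraries. MCL1 alone held 46.3% to 48.1% in siELF5 and 47.3% to 49.2% in siNC libraries. The 2 effectors held 17.4% to 18.9% in siELF5 and 16.8% to 18.1% in siNC libraries, and the 5 BH3-only genes 12.2% to 12.9% in siELF5 and 11.4% to 11.9% in siNC libraries. The share of these 5 genes was thus a little higher in every siELF5 library although BMF and BCL2L11 fell. BID, per length the most abundant of the 5, was higher. MCL1 and BCL2L1, per length the most abundant members, were lower, at 90.8% and 90.5% of their siNC means. A share is relative to the members' sum, so the higher share does not show that the summed level of the 5 rose. The shares and ratios hold for the members only. BAD, a BH3-only gene that is not a member here, was left out of these sums. It averaged 2380 normalised reads in siELF5 and 1432 in siNC libraries, over 1327 bp of merged exon. The log2 ratio of survival to BH3-only genes was 2.49, 2.43 and 2.49 in siELF5 libraries and 2.65, 2.62 and 2.56 in siNC libraries, a difference of -0.14. The log2 ratio of survival to effector genes was 2.01, 1.96 and 1.87 in siELF5 libraries and 2.07, 2.09 and 1.95 in siNC libraries, which overlap, a difference of -0.09. After the GC correction the differences were -0.086 for BH3-only genes and 0.049 for effectors, so the effector ratio turned direction. The survival sums include BCL2L1, whose level is uncertain as given above, and RNA ratios do not measure the proteins' balance.

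A feature that the choice of members did not use was held by some of them. The letters CACTAAC or ACTAACA were in the 3′ UTR of 4 of the 10 (BCL2, BCL2L1, MCL1 and BCL2L11), against 11.3% of 13463 tested genes with a 3′ UTR searched. The longest 3′ UTR of each gene was searched, and these shares were not matched for its length. Of those 4 genes, BCL2 was called higher and BCL2L1, MCL1 and BCL2L11 lower, where 47.1% of all tested genes were called. A link between the letters and the calls was not tested.

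Further genes of the pathway were taken as lists by function. With the GC score as a covariate, 9 of all these listed genes stayed or became called (BNIP3L, BOK, APAF1, TNFRSF10B, DYNLL2, VDAC1, YWHAE, ESR1 and MYC), in a fit that called 7.15% of all tested genes, and the other calls given below were lost. Of 9 tested other BCL2 family genes, 3 were called higher and 3 lower, against 23.8% higher and 23.3% lower of all tested genes (median log2 fold change 0.01, against 0.00). BAD, a BH3-only protein switched off by phosphorylation, rose by 0.74 on the log2 scale (SE 0.084, limma adjusted p = 1.62e-05), but its transcripts are 66.3% GC and the value was 0.08 after the GC correction. BNIP3L, a mitophagy receptor, rose by 0.33 (SE 0.043, limma adjusted p = 5.65e-05), and its value was 0.36 after the correction. BCL2L12 rose by 0.35 and BCL2L13 fell by 0.18 on the log2 scale (limma adjusted p = 0.00163 and 0.0019). BOK, an effector relative named after its values were seen, was at 0.01 as deposited and at -0.62 after the GC correction, with transcripts of 66.0% GC. BCL2A1, BCL2L10, BCL2L14 and BCL2L15 were below the filter, and BCL2L10 was at 0 in every library.

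Downstream of the mitochondrion, 3 of 12 apoptosome and caspase genes were called higher and 2 lower, with 47.1% of all tested genes called in either direction (median 0.01). APAF1, the scaffold of the apoptosome, rose by 0.31 on the log2 scale (SE 0.039, limma adjusted p = 4.02e-05), while CYCS, the cytochrome c it binds, fell by 0.17 (SE 0.034, limma adjusted p = 0.00148). ENDOG, a mitochondrial nuclease, averaged 334 ± 90.1 normalised reads in siELF5 and 74.7 ± 15.9 in siNC libraries (SD, n = 3 each), a log2 fold change of 2.13, which was 1.29 after the GC correction. Of 10 genes for inhibitors of apoptosis and their antagonists, BIRC3 was higher (log2 fold change 0.36, limma adjusted p = 0.002) and BIRC6 lower (-0.12, limma adjusted p = 0.0287), where 47.1% of all tested genes were called, and the median was -0.01. The BIRC6 call was lost after the GC correction (-0.06, limma adjusted p = 0.197), with equal column totals (limma adjusted p = 0.112), with quantile scaling (limma adjusted p = 0.142), and without siNC replicate 1, siNC replicate 2, siELF5 replicate 1 or siELF5 replicate 2 (limma adjusted p = 0.058, 0.0938, 0.0948 and 0.133).

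Of 11 tested death receptor genes, 7 were called higher and 1 lower, against 23.8% higher and 23.3% lower of all tested genes, with a median log2 fold change of 0.27 as deposited and 0.27 after the GC correction. TNFRSF10B, a receptor for TRAIL, rose by 0.32 (SE 0.039, limma adjusted p = 2.81e-05), FAS by 0.27 (SE 0.042, limma adjusted p = 0.00017) and the decoy receptor gene TNFRSF10C by 0.51 (SE 0.085, limma adjusted p = 0.000318). TRADD, an adaptor of the TNF receptor, rose by 0.80 as deposited and was at 0.27 after the GC correction. CFLAR, the inhibitor of caspase-8 and named after its values were seen, fell by 0.27 (SE 0.050, limma adjusted p = 0.000763). With the GC score as a covariate, 1 of the 11 was called, against 7.15% of all tested genes. BID, the link from these receptors to mitochondria, was higher as described above.

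Of 14 genes that place or turn over BCL2 family proteins, 2 were called higher and 5 lower, against 23.8% higher and 23.3% lower of all tested genes (median -0.06). DYNLL2, the light chain that holds BMF at myosin motors, rose by 0.46 on the log2 scale (SE 0.032, limma adjusted p = 2.24e-07), and DYNLL1, the light chain that holds BIM at dynein, fell by 0.23 (SE 0.031, limma adjusted p = 7.09e-05). VDAC1, a channel of the outer mitochondrial membrane, and YWHAE, a 14-3-3 protein, each fell by 0.32 (SE 0.031 and 0.032, limma adjusted p = 3.59e-06 and 5.64e-06). CYCS, DYNLL1, VDAC1 and YWHAE have processed pseudogenes, so their values are uncertain as far as reads are shared. Of 16 transcription factors known to act on BH3-only genes, 6 were called higher and 6 lower, against 23.8% higher and 23.3% lower of all tested genes (median 0.07). ESR1, the oestrogen receptor, averaged 21822 ± 102 normalised reads in siELF5 and 15985 ± 157 in siNC libraries (SD, n = 3 each), a log2 fold change of 0.45 (limma adjusted p = 7.88e-08), and PGR, the progesterone receptor, rose by 0.22 (limma adjusted p = 4.28e-05). MYC fell by 0.31 and E2F1 by 0.19 on the log2 scale (limma adjusted p = 9.49e-05 and 0.0016). E2F1 transcripts are 62.5% GC, and its value was -0.51 after the GC correction (limma adjusted p = 1.31e-07). FOXO3, a forkhead factor known to act on BCL2L11, was at 0.01 (95% confidence interval -0.07 to 0.08, limma adjusted p = 0.925).

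**Figure D5:**
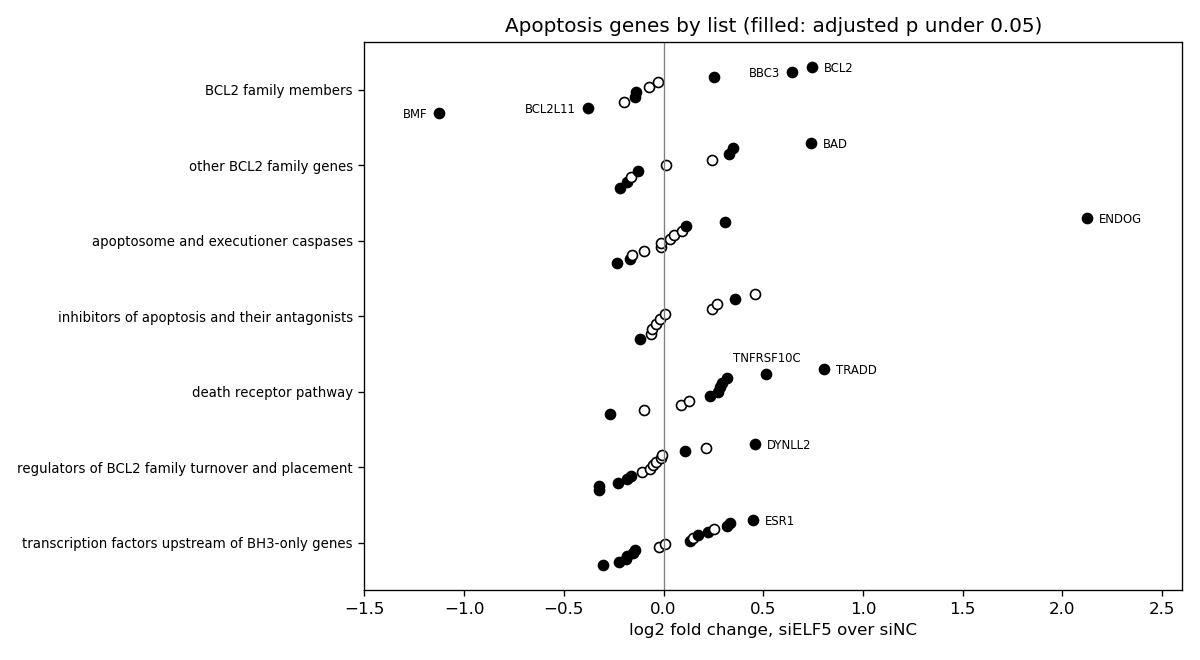
Log2 fold change, siELF5 over siNC (horizontal axis), of each tested gene in the 7 apoptosis lists, filled where the limma adjusted p was under 0.05. BMF at -1.13 is the lowest and ENDOG at 2.13 the highest point, and the death receptor list has most of its points to the right of 0.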

How the data were processed

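RNA-seq of 6 libraries was analysed, 3 of siELF5 and 3 of siNC, grouped by sample title. Libraries were made with a TruSeq RNA kit v2, per the labels' protocols. The build hg19 and the tools STAR 2.6, Subread, featureCounts 1.6.3 and DESeq2 1.22.1 are named, per the submitters' processing notes; the sources used here give no counting options. The deposited per-library values are signal values, read counts over a library's own size factor, and 100% of non-zero values were whole multiples of the column's smallest (within 1e-06). The authors' deposited log2 fold changes and adjusted p-values served for comparison only.

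limma 3.58.1 (R 4.3.3, intensity trend) was run on log2(value + 1) of the 16032 genes with a mean of at least 10. The added 1 makes changes of low genes smaller. Even so, the limma log2 fold changes of BCL2 and BBC3, 0.75 and 0.64, were larger than those of the count models. These were 0.69 and 0.62 in edgeR and 0.70 and 0.62 in DESeq2. edgeR 4.0.16 and DESeq2 1.42.0 were run on the recovered reads. The GC correction subtracts in each library the loess trend (span 0.3) of gene deviations on transcript GC from GENCODE 29. The fit was tested on simulated data. Members and lists were chosen with earlier results of these data known. Named genes were all members, ELF5, up to 4 called genes per list with the smallest adjusted p, ESR1, PGR, FOXO3, and the 3 genes closest in pattern to BCL2 and to MCL1; a few others under the rule are not reported here. Replicates differed beyond sampling noise (chi-square per degree of freedom 4.26 to 11.4). Reference coordinates are GRCh38 and were not joined to hg19 positions. Counting error is small except for BCL2, BBC3 and BIK. Alternatives were edgeR, DESeq2, other pseudocounts, filters and scalings, the GC terms, the replicate number as a block, each library left out, and, added after seeing the data, the longest transcript as length.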

Additional observations from a re-analysis of the deposited data

How the results depend on the processing

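Each fit was repeated under 19 alternatives. BMF and BIK stayed on their side of the threshold in all 19, with BMF between -1.20 and -1.08. Of the 10 genes 7 were called; leaving out 1 library gave 4 to 7, with 4 without siNC replicate 2 or siELF5 replicate 2. With the GC score of each library as covariate 1 of the 10, 9 of the other listed genes (40 in the main analysis) and 1147 of all genes (7559) were called. That fit turned the log2 fold change of BCL2 to -0.67, BBC3 to -0.44, BID to -0.00193, BCL2L12 to -0.068 and BOK to -0.45, the uncalled BIK to 0.45, and, among other called genes of the lists, BNIP3 to 0.13 and TNFRSF10A to -0.03. The GC correction turned BBC3 to -0.46 and BOK to -0.62, and so did the replicate block with GC correction. It also moved the difference in the survival to effector ratio to 0.049 and in the survival to BH3-only ratio to -0.086. Why these values moved was not tested. Quantile scaling ended the calls of BCL2 (0.57, limma adjusted p = 0.0717) and BBC3 (0.48, limma adjusted p = 0.0549). Same-numbered replicates did not deviate together (correlations 0.01, -0.03 and -0.06), and not every library correlated best with its own number. With the replicate number as a block 7174 genes and 7 of the 10 were called. Few reads limit BCL2, BBC3 and BIK.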

Other observations

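The genes whose pattern over the 6 libraries was most like that of BCL2, among 12851 genes with a mean of at least 100, were SPIRE2 (Pearson r = 0.999), FAAP100 (0.998) and LDOC1 (0.996). For MCL1 they were RPL35 (0.998), RHOT1 (0.997) and RPL38 (0.997), of which the ribosomal protein genes have many pseudogenes. These are the highest of many correlations over 6 libraries that share 2 groups, and are given as a description. FAAP100 had a log2 fold change of 0.37 as deposited and -0.24 after the GC correction. SPIRE2 went from 0.23 to -0.09 and LDOC1 from 0.16 to 0.09. With the GC score as a covariate SPIRE2, FAAP100 and LDOC1 were at -0.19, -0.31 and -0.16. The GC correction moved RPL35 from -0.17 to -0.59, RHOT1 from -0.28 to -0.24 and RPL38 from -0.21 to -0.20.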
